A study of Homo sapiens with 4 samples.

Results

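The genes described here are members of the Notch pathway and its HES effectors in MDA-MB-231 Fluc cells, a line from a triple-negative breast tumour that carries an inserted luciferase gene. They were chosen by symbol from 10 names: the receptors NOTCH1, NOTCH2 and NOTCH3, the ligands JAG1 and JAG2, the nuclear factors RBPJ and MAML1, and the target genes HES1, HES4 and HEY1. Of these, 9 had a row among the 13957 genes of the deposited table, and HEY1 had none in the table used here, so that no value is given for it. RNA from 4 samples was sequenced, 2 of cells exposed to 50 μM cordycepin for 2 h and 2 of cells given the vehicle DMSO. Cordycepin is an adenosine analogue known to interfere with polyadenylation. The cells are a single cultured line, and the labels do not say whether the duplicates came from separate cultures.

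The table holds no value per library. For each gene it gives the authors' mean level over the compared libraries, in log2 CPM (the reads of a gene scaled to library size), together with the authors' own comparison of cordycepin with DMSO, which was not used. The values below are therefore levels over treated and vehicle cells together, and they give neither a difference between the groups nor a spread. The depth of each library is unknown for the same reason. A level of this kind ranks genes within these cells, and whether any pair of neighbours in the order differs beyond the error between libraries could not be judged.

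Notch is a receptor on the cell surface that is switched on by a ligand on the neighbouring cell. Ligand binding exposes the receptor to ADAM proteases and then to γ-secretase, and the freed intracellular part enters the nucleus, binds the DNA-binding protein RBPJ and recruits the coactivator MAML1. The best known genes turned on in this way encode HES and HEY repressors, basic helix-loop-helix proteins of which some, such as HES1, also repress their own genes. In the mammary gland the pathway takes part in the choice of luminal fate, and it is often studied in triple-negative breast tumours.

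RBPJ binds a short core motif, TGGGAA on either strand, and the promoters of HES1 and HES4 are shown first because they carry this motif. The windows are RefSeq promoters on GRCh38.p14, from 250 bases before to 50 bases after the start of the transcript, written on the strand of the gene with the core motif in capitals. HES1 lies on the plus strand (chr3:194135898-194136197) and HES4 on the minus strand (chr1:1000048-1000347). The third window belongs to an upstream start of RBPJ itself on the plus strand (chr4:26319496-26319795).
HES1: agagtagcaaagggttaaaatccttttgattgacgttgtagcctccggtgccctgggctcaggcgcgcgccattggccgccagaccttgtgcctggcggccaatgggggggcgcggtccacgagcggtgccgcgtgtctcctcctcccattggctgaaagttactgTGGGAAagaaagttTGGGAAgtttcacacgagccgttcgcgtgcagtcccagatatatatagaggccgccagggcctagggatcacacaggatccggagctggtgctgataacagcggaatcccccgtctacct
HES4: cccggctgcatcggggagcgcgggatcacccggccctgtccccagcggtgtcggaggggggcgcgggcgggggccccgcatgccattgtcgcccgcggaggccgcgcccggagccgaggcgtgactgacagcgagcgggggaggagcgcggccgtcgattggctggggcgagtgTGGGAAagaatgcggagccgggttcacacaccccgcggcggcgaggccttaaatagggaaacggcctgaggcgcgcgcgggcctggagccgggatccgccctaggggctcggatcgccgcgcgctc
RBPJ: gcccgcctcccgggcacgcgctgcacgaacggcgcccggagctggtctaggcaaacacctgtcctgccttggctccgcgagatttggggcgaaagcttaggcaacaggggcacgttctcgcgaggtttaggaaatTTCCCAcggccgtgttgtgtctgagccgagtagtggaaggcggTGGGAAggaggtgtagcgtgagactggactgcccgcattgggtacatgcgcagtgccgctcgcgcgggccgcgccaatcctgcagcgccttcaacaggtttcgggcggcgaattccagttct

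The HES1 window held 2 copies of the core motif in the same direction, beginning 84 and 70 bases before the start, with 8 bases between them. In HES4 a single copy began 76 bases before the start, within the stretch spanned by the HES1 pair. In both genes a copy was preceded by G, which gives the longer form GTGGGAA. The HES4 copy occupies bases 1000168 to 1000173 of chromosome 1 and so lies across the first base of the gene as the deposited table annotates it, at 1000172. RBPJ has 5 RefSeq starts. Of its windows, the upstream one printed above held 2 copies, 115 and 72 bases before its start and in opposite directions, and the other 4 held none. That start lies 1268 bases before the start of the canonical transcript of RBPJ, so the motif-bearing window is not the one of the canonical transcript.

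All 9 listed members had a promoter in the RefSeq table, in 13 windows. The core motif was found in 3 of the 13 windows, those of HES1, HES4 and 1 start of RBPJ. None of the 5 windows of receptors and ligands held it, and MAML1 had none either. Among all 35116 RefSeq windows a similar share, 24.0%, held at least 1 copy, 3.80% held 2 or more and 6.25% held the longer form. A match to 6 letters is common at this rate and is a description of the sequence, not of binding. The N box CACNAG, which HES proteins are known to bind, was searched on both strands in the same windows. HES1 held 4 copies, at 165, 132 and 58 bases before the start and 16 bases after it. Of all windows, 38.0% held at least 1 and 0.293% held 4 or more. These matches too describe the sequence, and binding of HES proteins to them was not tested. At least 1 N box was found in 6 of the 9 members, each in 1 window. Counted by window, as the share of 38.0% is, this was 6 of the 13. Besides HES1 these were NOTCH1, NOTCH2, NOTCH3, MAML1 and, in 1 of its windows, RBPJ. HES4, JAG1 and JAG2 held none.

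**Figure D1:**
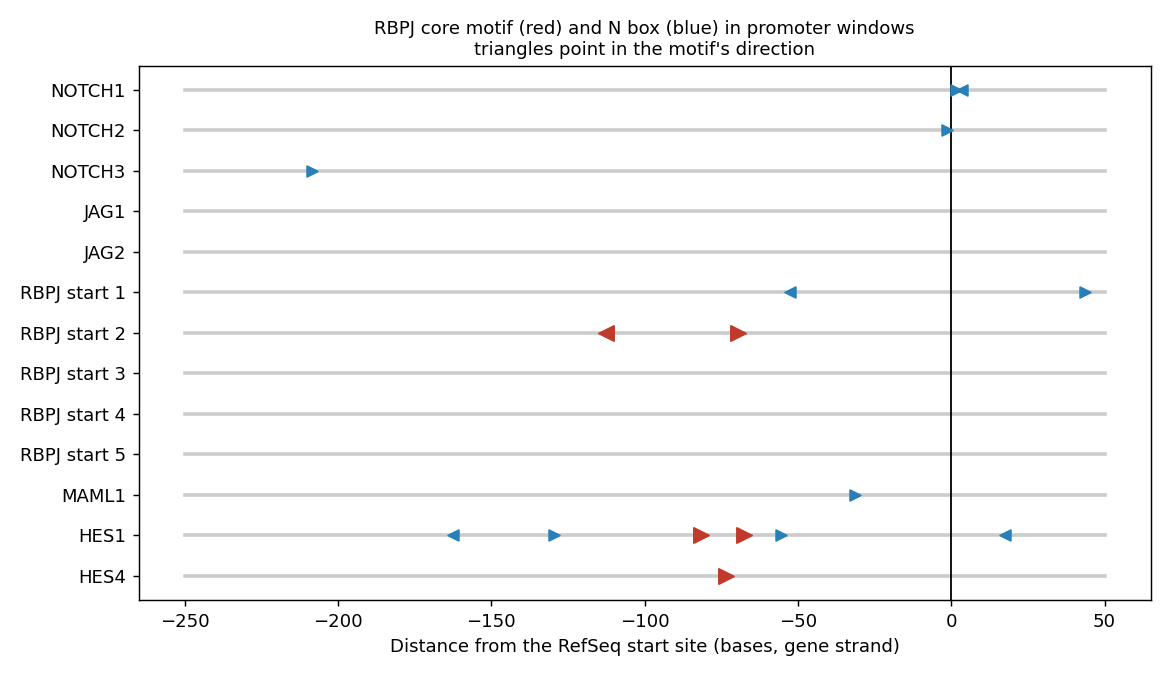
RBPJ core motif (red) and N box (blue) in the 13 promoter windows of the 9 listed members, by distance from the RefSeq start site in bases; triangles point in the direction of the motif. Core motifs appear in HES1, HES4 and 1 of the 5 RBPJ windows, between 115 and 70 bases before the start.

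The receptors spanned nearly the whole range of the members. NOTCH2 (chromosome 1, 119911553 to 120100779, minus strand) had a mean of 8.59 log2 CPM, the 393rd highest value in the table and above 97.2% of its genes. NOTCH1 (chromosome 9, 136494433 to 136546048, minus strand) had 6.16 log2 CPM, at percentile 76.7. NOTCH3 (chromosome 19, 15159038 to 15200995, minus strand) had 3.43 log2 CPM, at percentile 32.1. A long transcript yields more reads for the same number of molecules, so the genes were compared after division by the length of the canonical GENCODE transcript. On this scale NOTCH2 had 33.6 CPM per kb, NOTCH1 had 7.48 and NOTCH3 had 1.24, against a median of 8.23 over all genes. NOTCH2 was thus 4.50 times NOTCH1 and 27.1 times NOTCH3, and it made up 79.4% of the summed level of the 3 receptors. With the gene length given in the deposited table, which for NOTCH2 is 19930 bases in place of 11425, NOTCH2 was 2.87 times NOTCH1 and 71.0% of the sum.

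NOTCH2 has near-identical partial copies in the human genome, the NOTCH2NL genes, which resemble its first exons. NOTCH2NLA and NOTCH2NLC were in the table at 1.63 and 0.94 log2 CPM, or 0.808% and 0.501% of the CPM of NOTCH2. NOTCH2NLB and NOTCH2NLR had no row. How reads that fit several of these genes were assigned is not given in the sources used here, and the value of NOTCH2 is uncertain to that extent.

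Of the ligands, which are membrane proteins of the signal-sending cell, JAG1 (chromosome 20, 10637684 to 10673999, minus strand) had a mean of 5.76 log2 CPM and JAG2 (chromosome 14, 105140982 to 105168824, minus strand) had 3.17. Their transcripts are of like length, 5940 and 5773 bases, so the order does not turn on the correction. Per kilobase JAG1 had 9.11 CPM, close to the median of all genes, and JAG2 had 1.56, at percentile 13.6. JAG1 was therefore 5.84 times JAG2, or 4.13 times with the table's gene lengths. The delta-like ligand genes DLL1, DLL3 and DLL4 had no row.

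The nuclear factors were at or above the median. RBPJ (chromosome 4, 26163455 to 26435131, plus strand), the DNA-binding subunit, had 7.37 log2 CPM, at percentile 91.0, and 30.7 CPM per kb. It was next to NOTCH2 in the order, with a ratio of 0.912. MAML1 (chromosome 5, 179732822 to 179777283, plus strand), the coactivator, had 5.74 log2 CPM and 9.31 CPM per kb, so RBPJ was 3.29 times MAML1 per kilobase and 1.99 times with the table's lengths. Processed pseudogenes of RBPJ are annotated in GENCODE, and none of the 4 named RBPJP genes had a row.

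The target genes have the shortest transcripts among the members. HES1 (chromosome 3, 194136148 to 194138732, plus strand) had 3.52 log2 CPM and HES4 (chromosome 1, 998962 to 1000172, minus strand) had 4.23, at percentiles 33.3 and 44 and thus below the median of 4.58 over all genes. Their canonical transcripts have 1575 and 885 bases. Per kilobase HES4 had 21.2 CPM, the third among the members and at percentile 72.9, and HES1 had 7.31 CPM, at percentile 47. With the correction for length HES4 moved from the sixth place among the members to the third and NOTCH1 from the third to the sixth, while HES1 stayed the seventh. HES4 was 2.90 times HES1, and 3.00 times with the table's lengths.

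**Figure D2:**
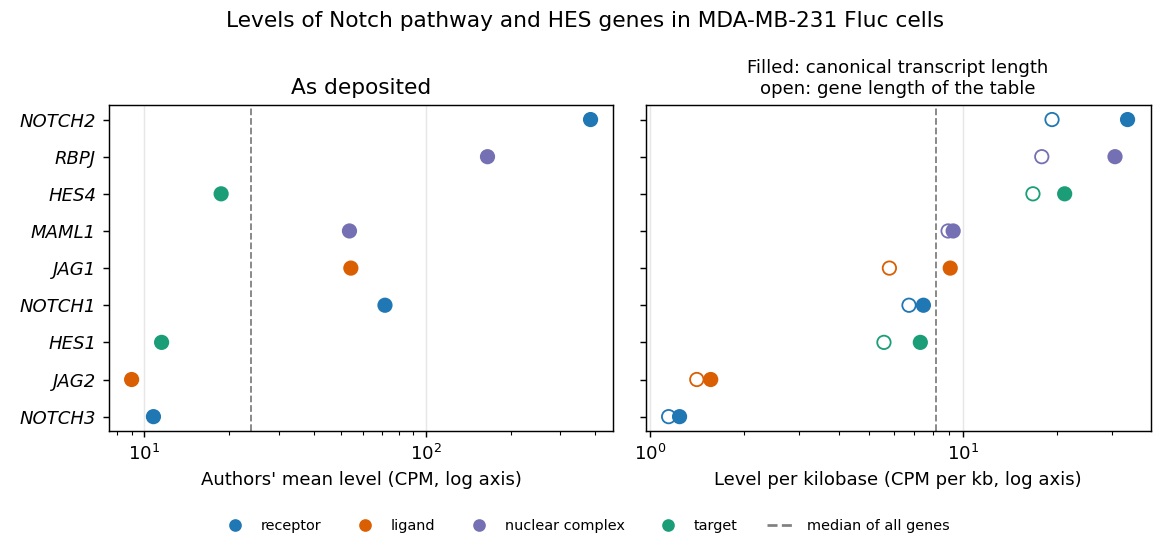
Authors' mean level of the 9 listed members as deposited (left, CPM) and per kilobase (right, CPM per kb), both on log axes and coloured by role; filled points use the canonical transcript length, open points the gene length of the deposited table, and the dashed line is the median of all genes with the first of these. NOTCH2 and RBPJ lead on both scales, and HES4 moves from the sixth to the third place.

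From highest to lowest level per kilobase the order was NOTCH2, RBPJ, HES4, MAML1, JAG1, NOTCH1, HES1, JAG2 and NOTCH3. The first 3 had between 21.2 and 33.6 CPM per kb, the next 4 lay between 7.31 and 9.31, and JAG2 and NOTCH3 were at 1.56 and 1.24. With the table's gene lengths 35 of the 36 pairs of members kept this order, and only JAG1 and NOTCH1 changed places. No other gene with a row overlapped a member on either strand in GENCODE. The overlapping annotations were lncRNA genes and miRNA genes without a row. The libraries were stranded, but some of these annotations lie on the same strand as JAG1, JAG2, NOTCH1 or NOTCH3. Strand does not set reads of those apart.

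Notch pathway genes beyond the members were examined by role with a list of 55 genes written from general knowledge, of which 42 had a row. The median of the 42 was 4.70 log2 CPM, compared with 4.58 over all genes, and per kilobase it was 8.29 CPM compared with 8.23. The 9 members had a median of 5.74 log2 CPM and of 9.11 CPM per kb, and 5 of them were above the median of all genes as deposited. Of the 33 listed genes that are not members, 18 were above it. Neither set was tested against other genes.

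All 7 cleavage genes of the list had a row. APH1A and NCSTN, which encode subunits of γ-secretase, had 99.8 and 61.4 CPM per kb. PSENEN and APH1B, which also encode subunits, had 14.4 and 1.42. ADAM10, the protease of the first cut, had 29.2 CPM per kb, similar to the 33.6 of NOTCH2, and ADAM17 had 5.03. PSEN2, a catalytic subunit of γ-secretase, had 11.0 CPM per kb. The median of the cleavage genes, 14.4 CPM per kb, was above the levels of NOTCH1 and NOTCH3 and below that of NOTCH2.

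Among the genes that add sugars to the receptor, POFUT1, the fucosyltransferase, had 64.6 CPM per kb, while the Fringe genes RFNG, LFNG and MFNG, which extend that fucose, had 11.9, 3.67 and 1.35. MIB1 and MIB2, ubiquitin ligases of the ligands, had 10.6 and 12.0 CPM per kb, close to JAG1, and NEURL1 had no row. In the nuclear complex, MAML2, a relative of MAML1, had 3.44 CPM per kb and MAML3 had no row. SNW1, a cofactor of RBPJ, had 42.9 CPM per kb, and the acetyltransferase genes EP300 and CREBBP had 5.82 and 5.10. All 5 co-repressor genes of the list had a row. HDAC1 at 95.8 and CTBP1 at 60.5 CPM per kb were above the 30.7 of RBPJ. TLE1 at 18.4, CIR1 at 7.38 and SPEN at 6.09 were below it.

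Of 8 regulators of the receptor, 6 had a row. NUMB, an inhibitor of Notch, and the ubiquitin ligase ITCH had 20.3 and 17.6 CPM per kb, whereas FBXW7, which marks the intracellular part for destruction, had 2.35. Of the 5 ligand genes of the list 2 had a row, and of the 10 genes listed as targets 5 had a row. Besides HES4 and HES1, the listed targets with a row were HES6 with 7.14 CPM per kb, NRARP with 1.39 and HES2 with 0.475. Whether Notch acts on each of these genes was not examined. HES5, HES7, HEY2 and HEYL had no row, like HEY1. The lowest mean in the table was 0.56 log2 CPM and the filter on low counts is not given in the sources used here, so a gene without a row may have been below that filter or not analysed here for another reason.

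**Figure D3:**
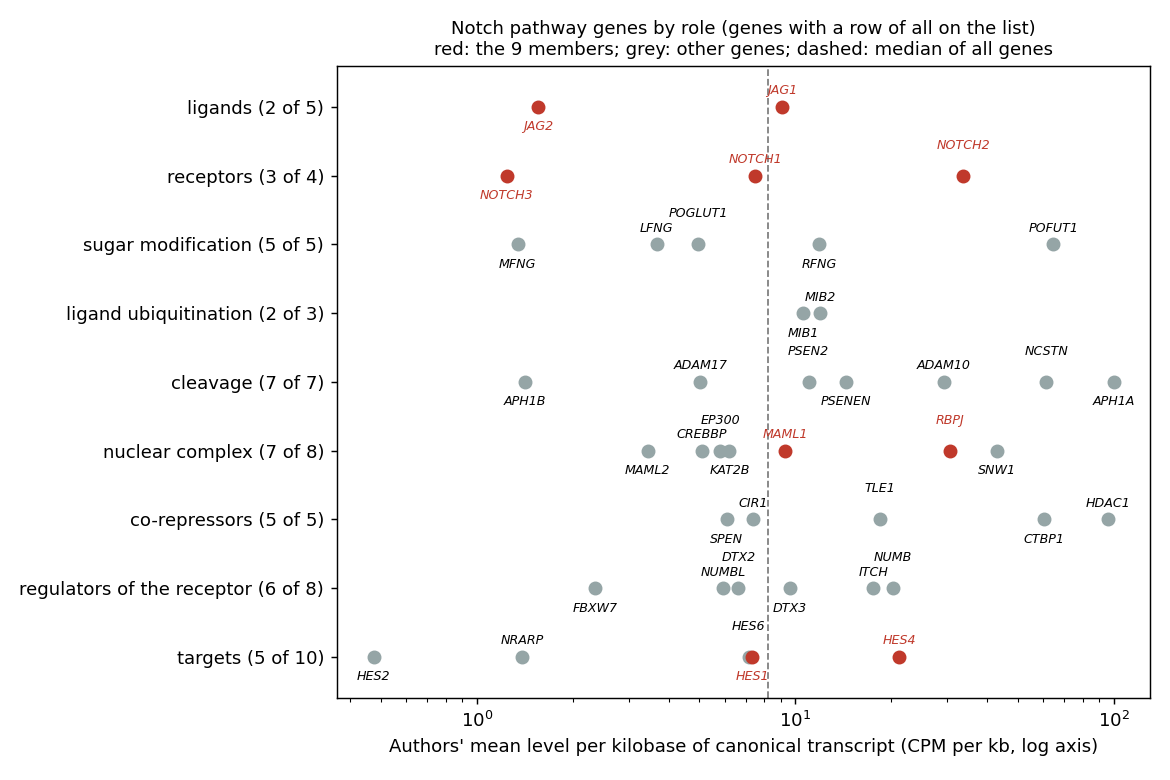
Authors' mean level per kilobase of canonical transcript (CPM per kb, log axis) of the 42 listed Notch pathway genes with a row, by role, with the number with a row of all listed; members are red, other genes grey, and the dashed line is the median of all genes. NOTCH2, RBPJ and HES4 are the members furthest right, at 33.6, 30.7 and 21.2.

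The identity of the cells was examined with a short list of marker genes. Of 6 genes typical of this mesenchymal line, 5 had a row, between 10.2 and 11.5 log2 CPM, among them VIM and CD44, and SPARC had none. Other genes were listed as low or without a row in this line. Of these, the hormone receptor genes ESR1 and PGR had no row. CDH1 had 3.68 log2 CPM, EPCAM 3.68 and GATA3 4.48, below the median of 4.58 over all genes. ERBB2 had 6.49, at percentile 81.8, and the keratin genes KRT8 and KRT18 had 9.11 and 8.12. ERBB2 and both keratin genes were thus higher than the list anticipated. Of 4 genes of other cell types, PTPRC, PECAM1 and ALB, of blood, vessel and liver cells, had no row, and the collagen gene COL1A1, of fibroblasts, had 3.36 log2 CPM, at percentile 31.1.

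The members also differ in structure. In protein-coding genes of the table the median span was 33892 bases and the median number of exons was 9. The receptors have 33 or 34 exons and the ligands 26, while HES1 and HES4 have 4 each and spans of 2585 and 1211 bases, at percentiles 2.48 and 0.384 of protein-coding genes. RBPJ spans 271677 bases, at percentile 95.9. The 3′ UTRs of NOTCH2 and RBPJ, of 3753 and 3916 bases, are the longest among the members, against a median of 1368, and those of HES1 and HES4 have 499 and 95 bases.

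As polyadenylation is a step with which cordycepin is known to interfere, the ends of the canonical transcripts were searched for the poly(A) signal, the hexamer that directs cleavage and tailing. AATAAA was found in the last 40 bases of 6 of the 9 members, compared with 65.7% of 11603 protein-coding genes. HES1 had the variant ATTAAA, which 15.2% of these genes had in place of AATAAA. NOTCH2 and HES4 had neither in this window of their annotated transcript. The 30 bases that hold the signal are shown on the strand of the gene, on GRCh38, with the last hexamer in capitals; in JAG2 an earlier copy stands in lower case.
NOTCH1: AATAAAaatgatactgatggtgatctggct
NOTCH3: catgtAATAAAtacttctttacttgtgcca
JAG1: gcttgAATAAAcaccactggattaatggcc
JAG2: caaatgaataaatgaatgaacgAATAAAaa
RBPJ: AATAAAaaggaaatgtaaaccattgtaaaa
MAML1: taaaAATAAAgtattttgctagtatggaaa
HES1: tgttATTAAAagaacatttgtaaaaatcca

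These stretches lie at chr9:136494437-136494466 for NOTCH1, chr19:15159038-15159067 for NOTCH3, chr20:10637684-10637713 for JAG1, chr14:105140995-105141024 for JAG2, chr4:26434894-26434923 for RBPJ, chr5:179777254-179777283 for MAML1 and chr3:194138703-194138732 for HES1. The signal ended between 19 and 28 bases before the end of the canonical transcript in 6 of these 7 genes. In JAG2 the last copy ended 2 bases before that end. The annotated genes of JAG2 and RBPJ run further than these transcripts, to 105140982 and 26435131, so the distances depend on the end that is used.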

How the data were processed

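RNA of 4 samples of MDA-MB-231 Fluc cells was measured by stranded, ribosomal RNA-depleted sequencing with 75 bp paired-end reads. Per the study's methods, reads were mapped to GRCh38.p13 and counted with rsubread, whereas the submitters' processing notes name TopHat, HTSeq, DESeq and Cufflinks on hg38. The authors' deposited table gives 1 mean level per gene in log2 CPM and a gene length. It also holds their fold changes, F statistics, p-values and adjusted p-values of cordycepin against DMSO, which were not used or printed because they are the authors' own comparison. It holds 0 columns per sample, so no test, SD or interval could be given, and depth is unknown.

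Of the gene IDs, 13922 (99.7%) were found in GENCODE release 44 (GRCh38), and all 9 listed members had the same start and end there. Lengths, exons and 3′ ends are those of its Ensembl canonical transcripts, and promoters those of RefSeq. A percentile is the percent of genes below a value. Genes named are the members and a Notch pathway list, of which some genes are not reported here. Members and lists were chosen with earlier results of these data known, and the N box and the variant poly(A) signal were added after the files were seen. Functions were tested on simulated data. The work was done in Python 3.11.15 with pandas 2.3.3 and numpy 2.4.6, and figures were drawn with matplotlib 3.10.9.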

Additional observations from a re-analysis of the deposited data

How the results depend on the processing

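The median member stood at percentile 69.9 among all genes, at 65.5 among protein-coding genes and at 59.9 among genes above the lowest 25% of mean log2 CPM. These percentiles are of levels without a correction for length. On levels per kilobase the median percentile of the members was 52.6, near the middle of all genes. The median of the wider Notch list was 4.70 log2 CPM, and 5.47 without genes in that lowest 25%, since its low genes are then removed. Matching by gene ID or older symbol gave the same 42 listed genes, the longer motif and the bases before the start alone each gave 3 members, and the last 50 bases gave 6 members with AATAAA. Without any correction for length, 29 of the 36 pairs of members stood in the same order as per kilobase. Protein identity between members was planned and not run, as no protein sequences were at hand. No paired analysis was possible because the table has no values per library, and for the same reason no library could be left out. The canonical transcript may not be the isoform these cells use.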
